A study of Mus musculus with 6 samples.

Results

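Collecting duct and urothelial genes were examined in whole kidneys of E15.5 mouse embryos (E, embryonic day). The set holds 9 named genes, *Aqp2*, *Calb1*, *Gata3*, *Krt8*, *Krt18*, *Krt19*, *Upk1b*, *Upk3a* and *Emx2*, and takes every probe that the array's annotation gives to 1 of them, 12 of 45277 usable probes. Of these, 6 probes, 1 each for 6 genes, were bright enough to be tested, among 18639 tested probes in all. The arrays were 3 of *FoxD1GC;Dicer fl/fl* kidneys and 3 of control kidneys, 1 of each genotype from each of 3 litters, and each array held RNA pooled from 2 embryos. In the mutant embryos, a fusion of green fluorescent protein and Cre recombinase is expressed from the endogenous *FoxD1* locus in the renal stroma, where it deletes floxed *Dicer1*, the gene of the enzyme that makes mature microRNAs. The controls were littermates without Cre. The sources used here do not say whether they carried the floxed allele. The line with the Cre allele was 129-Elite and that with the floxed allele C57BL/6J. Neither the ureteric epithelium nor the urothelium, for which these 9 genes were listed, belongs to the *FoxD1* lineage. RNA of whole kidneys does not show whether cells of that lineage carry some of these RNAs too.

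The collecting duct system grows from the ureteric bud, an epithelial outgrowth of the nephric duct that branches into the surrounding mesenchyme. Its stalks become collecting ducts, which reabsorb water and adjust salt and acid, and its unbranched base becomes the ureter, whose lining is the urothelium. *Gata3* and *Emx2* encode transcription factors required for nephric duct and ureteric bud development, and *Calb1* encodes calbindin, a cytosolic calcium-binding protein of the ureteric bud and distal tubule. *Aqp2* encodes the vasopressin-regulated water channel of collecting duct principal cells. *Krt8* and *Krt18* encode the paired type II and type I keratins of simple epithelia, and *Krt19* a further type I keratin of ductal epithelia. *Upk1b* and *Upk3a* encode uroplakins, membrane proteins that pair with each other in the plaques of the urothelial surface. Keratins of simple epithelia are also made by mesothelium, so none of the 3 keratin genes marks duct cells alone.

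None of the 6 tested member genes passed the test for a difference between *FoxD1GC;Dicer fl/fl* and control kidneys. *Aqp2*, *Calb1* and *Emx2* were not tested. Of the 6 tested members, 4 had a log2 fold change above 0 and 2 below, from -0.35 for *Upk1b* to 0.40 for *Krt18*. None had a *B*-statistic above 0 (limma with litter in the model, the threshold of the study's methods) or an adjusted p under 0.05, as for 0% of all tested probes. Since no tested probe passed in this fit, that result does not set the members apart from other genes. The study itself, after its own processing of the arrays, reported differentially expressed genes at E15.5. At an unadjusted p under 0.05 stood 0 of 6 members, against 5.52% of all tested probes. Their median log2 fold change was 0.09, beside -0.04 over all 10474 tested genes. The mutant and control arrays overlapped in each of the 6 members, whereas the genotypes did not overlap in 12.9% of all tested probes (5.92% higher and 7% lower in mutants). Values are normalized log2 signals unless stated, and each standard error (SE) and 95% confidence interval comes from the same fit. Labels do not say more of the pools than their litter. The p-values rest on how the difference between mutant and control arrays varied over the 3 litters, which may in part be technical. The fit also draws each probe's variance toward that of all tested probes (6.8 degrees of freedom in all). An SE is therefore not the litter spread of that gene alone. In RNA of whole kidneys, fewer cells of a type and less RNA per cell cannot be told apart.

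On the array side, between 37.5% and 44.7% of probes were detected, that is, had a detection p-value under 0.05 against negative control beads. *Dicer1* (log2 fold change -0.33, SE 0.21, adjusted p = 0.86 from limma) and *Foxd1* (-0.32, SE 0.20, adjusted p = 0.86) were lower in each litter without passing the test, and whether the *Dicer1* probe lies in the floxed part is not stated in the sources. Kidney markers were present, with 10 of 12 listed nephron progenitor genes and 13 of 15 renal stroma genes tested. Of 8 listed adrenal and gonad genes, 0 passed the detection filter. *Xist*, RNA of the inactive X chromosome of female cells, was bright on 3 arrays and stood at 4.54, 9.39 and 9.64 in mutant litters 1, 2 and 3 and at 9.64, 4.57 and 4.61 in control litters 1, 2 and 3. Detected probes numbered 19331 to 20224 on these 3 bright arrays and 16981 to 18943 on the rest, with median bead signals of 106.3 to 116.4 on the bright and 119 to 123.7 on the rest. Sex of the pooled embryos and a difference between arrays therefore cannot be told apart.

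Upstream sequence is shown for the members whose 250 bases before the start site hold GATAA or its reverse TTATC, the core of the motif bound by GATA factors such as the member Gata3. RefSeq windows (GRCm38.p6) were at hand for 6 of 9 members, and 4 of these 6 hold the motif, as do 22.6% of 32851 windows of the same length. The windows of *Gata3* and *Emx2* do not contain these letters, and TATAAA or its reverse was found in 0 of 6, against 12.4% of all windows. Each is written 5′ to 3′ on the gene's strand, with the motif in capitals.
Aqp2 (chr15:99578806-99579055, plus strand): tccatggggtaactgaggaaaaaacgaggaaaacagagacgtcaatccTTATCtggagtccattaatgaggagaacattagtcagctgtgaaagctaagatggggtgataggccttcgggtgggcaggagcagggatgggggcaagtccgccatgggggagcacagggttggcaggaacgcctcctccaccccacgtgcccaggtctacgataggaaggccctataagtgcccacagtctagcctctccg
Krt8 (chr15:102004343-102004592, minus strand): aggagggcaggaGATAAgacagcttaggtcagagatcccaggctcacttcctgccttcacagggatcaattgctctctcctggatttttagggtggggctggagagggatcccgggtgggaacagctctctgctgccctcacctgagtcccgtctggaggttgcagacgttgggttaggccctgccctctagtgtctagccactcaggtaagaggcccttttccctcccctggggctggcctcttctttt
Krt18 (chr15:102027966-102028215, plus strand): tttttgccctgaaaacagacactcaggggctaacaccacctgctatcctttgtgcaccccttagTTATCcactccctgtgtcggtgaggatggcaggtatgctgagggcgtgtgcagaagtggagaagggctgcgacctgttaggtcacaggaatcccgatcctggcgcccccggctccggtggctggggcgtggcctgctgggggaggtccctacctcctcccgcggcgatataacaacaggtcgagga
Upk3a (chr15:85016891-85017140, plus strand): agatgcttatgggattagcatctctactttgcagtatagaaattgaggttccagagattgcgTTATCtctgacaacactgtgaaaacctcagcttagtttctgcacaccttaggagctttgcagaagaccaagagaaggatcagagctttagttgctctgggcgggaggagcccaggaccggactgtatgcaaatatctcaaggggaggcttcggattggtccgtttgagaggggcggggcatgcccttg
A match of letters is not a bound site. In the same annotation *Krt8* and *Krt18* are neighbours, with 0 protein-coding genes and 2 noncoding RNA genes between them.

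*Aqp2*, *Calb1* and *Emx2* were near background at E15.5 on these arrays and entered no test. The first *Aqp2* probe gave bead signals of 184.1, 115.3 and 98.4 in mutant litters 1, 2 and 3 and of 131.1, 116.9 and 121.5 in control litters 1, 2 and 3. It was detected only in litter 1, on both arrays, where the mutant was brighter. The second *Aqp2* probe gave 128.2, 115.2 and 98.3 in mutants and 145.2, 118 and 114.2 in controls of litters 1, 2 and 3, and was detected on the control array of litter 1 alone, so that the 2 probes of the water channel gene had opposite orders in that litter. Undetected probes had median signals of 98.4 to 113.7 per array, and the *Aqp2* signals of litters 2 and 3 lay close to these. For the second probe, not detected on any mutant array, the control mean was below the lowest measurable level and no fold is given.

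*Calb1* had bead signals of 106.1, 128.7 and 90.8 in mutant litters 1, 2 and 3 and of 106.6, 106 and 100.4 in control litters 1, 2 and 3. The mutant array of litter 2 alone was called detected (detection p-value 0.0107), and 0 of 3 control arrays were, so no fold could be given here either. *Emx2* was detected on 0 of 6 arrays, with bead signals of 97.4 to 108.5 in mutants and 103 to 105.7 in controls. On the normalized scale its groups did not overlap, at 4.49, 4.55 and 4.53 in mutant litters 1, 2 and 3 against 4.46, 4.45 and 4.48 in controls, but these values lie below the lowest level of any detected probe, 4.92 to 5.26 per array, and hold no measured difference. The dimmer of both *Krt8* probes was likewise detected on 0 of 6 arrays, and the dimmer *Upk1b* probe on the mutant array of litter 3 alone. A probe near background shows the limit of that probe, not the absence of the RNA.

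**Figure D1:**
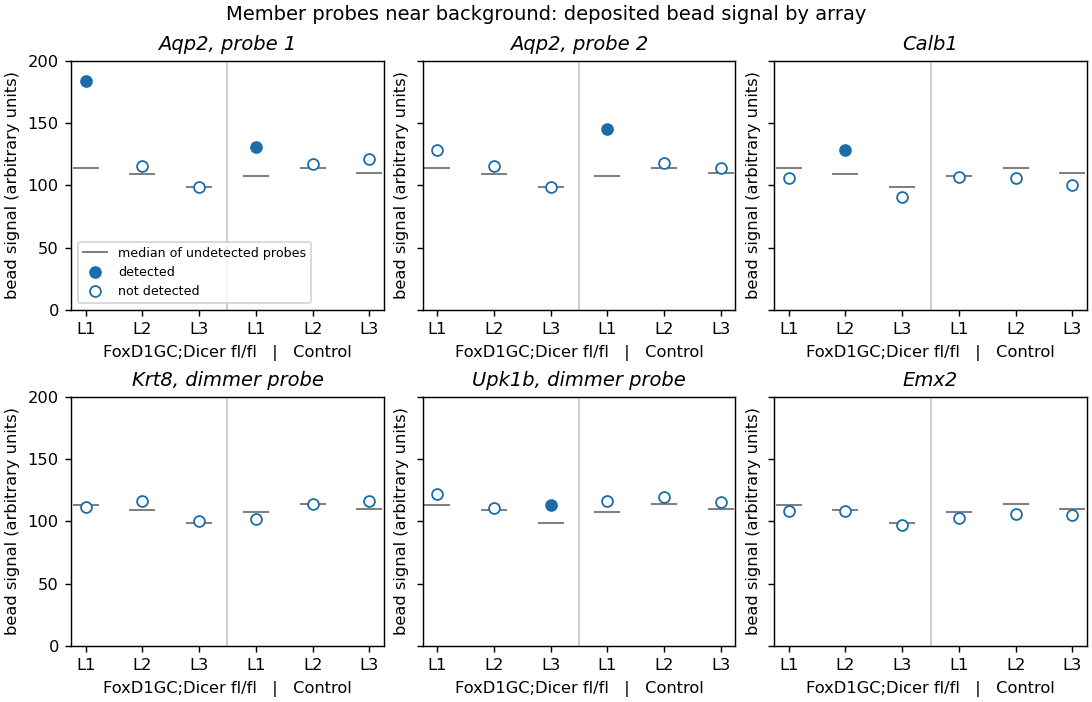
Deposited bead signal (arbitrary units) of the 6 member probes that did not pass the detection filter, by array, with mutant litters 1 to 3 left of control litters 1 to 3. Filled points are detected (p-value under 0.05), open points are not, and the grey bars give each array's median of undetected probes; *Aqp2* in litter 1 stands highest, at 184.1 in the mutant for the first probe.

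*Gata3*, the transcription factor gene of the nephric duct and ureteric bud, differed in opposite directions between litters. It was at 9.25, 10.13 and 10.11 in mutant litters 1, 2 and 3 and at 10.01, 9.52 and 9.53 in control litters 1, 2 and 3. Mutant kidneys were thus lower in litter 1 and higher in litters 2 and 3, by -0.76, 0.61 and 0.58. Its mean was 9.83 ± 0.50 in mutants and 9.69 ± 0.28 in controls (SD, n = 3 arrays each), a log2 fold change of 0.14 (SE 0.31, 95% confidence interval -0.59 to 0.88, adjusted p = 0.96 from limma). The sign of this value rested on litters 2 and 3: it was -0.076 without litter 3, -0.088 without litter 2 and 0.59 without litter 1.

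*Krt8*, the type II keratin of simple epithelia, followed the same order of litters. It stood at 9.94, 10.24 and 10.43 in mutant litters 1, 2 and 3, against 10.38, 9.79 and 9.93 in controls. The differences were -0.43, 0.45 and 0.50, so that litter 1 again ran opposite to the other two. The fitted log2 fold change was 0.17 (SE 0.25, 95% confidence interval -0.43 to 0.77, adjusted p = 0.93 from limma), and it was 0.47 without litter 1, 0.034 without litter 2 and 0.0068 without litter 3.

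*Krt18*, the type I partner of *Krt8*, had the largest positive value of the 6. It was at 8.49, 8.43 and 8.85 in mutant litters 1, 2 and 3 and at 8.54, 7.92 and 8.12 in control litters 1, 2 and 3. Only the control array of litter 1 reached the level of the mutants. It averaged 8.59 ± 0.23 in mutants and 8.19 ± 0.31 in controls (SD, n = 3 arrays each), a log2 fold change of 0.40 (SE 0.23, 95% confidence interval -0.15 to 0.94, adjusted p = 0.86 from limma). The differences were -0.05, 0.51 and 0.73 in litters 1, 2 and 3, and the value was 0.62 without litter 1, 0.34 without litter 2 and 0.23 without litter 3.

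*Gata3*, *Krt8* and *Krt18* had similar profiles from array to array. After each gene was centred on its own mean, the root mean square difference over the 6 arrays was 0.15 between *Krt8* and *Krt18* and 0.18 between *Gata3* and *Krt8*, the smallest of the 15 pairs of tested members. All 3 were lower in mutants of litter 1 and higher in mutants of litters 2 and 3, an order seen in 22.8% of all tested probes. It is also the order of *Xist*: *Gata3* read 10.01 to 10.13 where *Xist* was bright and 9.25 to 9.53 where it was not. With *Xist* as a covariate beside litter, the log2 fold change was -0.070 (SE 0.15) for *Gata3*, 0.028 (SE 0.15) for *Krt8* and 0.29 (SE 0.16) for *Krt18*. With litter, *Xist* and genotype fitted on 6 arrays, few degrees of freedom remain, so these values do not settle what *Xist* accounts for. Without litter 1 each of the 3 had an unadjusted p under 0.05 (from 0.022 to 0.047, adjusted p from 0.20 to 0.23 in limma), in a fit where 3923 of 18639 probes had one. In that fit both mutant arrays were bright for *Xist* and both control arrays were not. Genotype and *Xist* therefore cannot be told apart in any value given without litter 1.

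**Figure D2:**
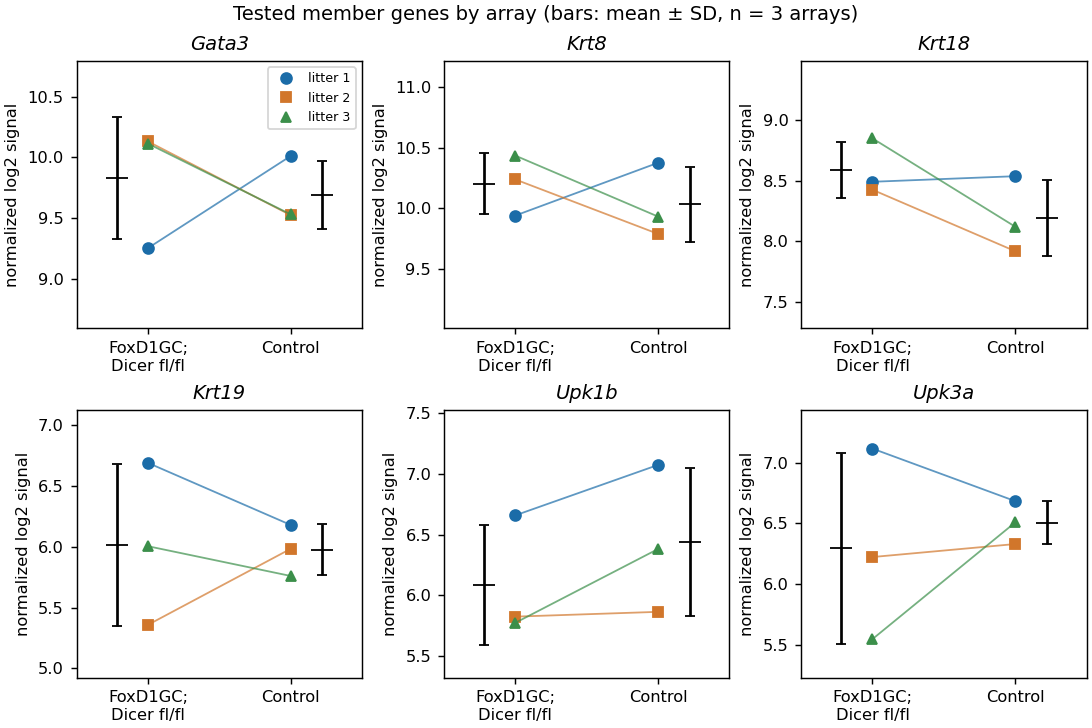
Normalized log2 signal of the 6 tested members, with mutant arrays left of control arrays and the arrays of a litter joined by a line; black bars are means ± SD (n = 3 arrays). Lines cross for *Gata3* and *Krt8*, where litter 1 slopes against litters 2 and 3, and none of the 6 panels separates the genotypes.

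*Krt19*, the type I keratin of ductal epithelia, did not share that order. Mutant kidneys of litters 1, 2 and 3 had 6.69, 5.36 and 6.01, and control kidneys 6.18, 5.98 and 5.76. Mutants were higher in litters 1 and 3 and lower in litter 2, and they held both the highest and the lowest of the 6 values. The log2 fold change was 0.04 (SE 0.27, 95% confidence interval -0.59 to 0.68, adjusted p = 0.99 from limma). It was -0.19 without litter 1, 0.38 without litter 2 and -0.057 without litter 3, so its sign was set by single litters.

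Of the uroplakin genes, *Upk1b* was the only tested member with the same direction in all 3 litters, as were 25.1% of all tested probes. It was at 6.66, 5.83 and 5.77 in mutant litters 1, 2 and 3 and at 7.07, 5.87 and 6.38 in control litters 1, 2 and 3. The mutant was lower by 0.41 in litter 1 and 0.61 in litter 3 but by 0.04 in litter 2, and litter 1 was bright in both genotypes. It averaged 6.09 ± 0.50 in mutants and 6.44 ± 0.61 in controls (SD, n = 3 arrays each), a log2 fold change of -0.35 (SE 0.21, 95% confidence interval -0.86 to 0.15, adjusted p = 0.86 from limma). The value was -0.32 without litter 1, -0.51 without litter 2, -0.23 without litter 3 and -0.10 in the processed values of the series matrix, which compress low signals.

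*Upk3a*, the partner of *Upk1b* in the urothelial plaque, was at 7.12, 6.22 and 5.55 in mutant litters 1, 2 and 3 and at 6.68, 6.33 and 6.51 in control litters 1, 2 and 3. The controls lay between 6.33 and 6.68, while the mutants spanned the highest and the lowest of the 6 values. The mutant was higher by 0.43 in litter 1 and lower by 0.11 and 0.96 in litters 2 and 3. The fitted log2 fold change was -0.21 (SE 0.29, 95% confidence interval -0.90 to 0.48, adjusted p = 0.93 from limma), and the value was -0.53 without litter 1, -0.26 without litter 2 and 0.16 without litter 3. *Upk1b* and *Upk3a* were nearer to each other (root mean square difference 0.34) than either was to *Krt19* (0.42 and 0.43) or to *Gata3* (0.66 and 0.75). In both genes the mutant array of litter 1 was brighter than those of litters 2 and 3.

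**Figure D3:**
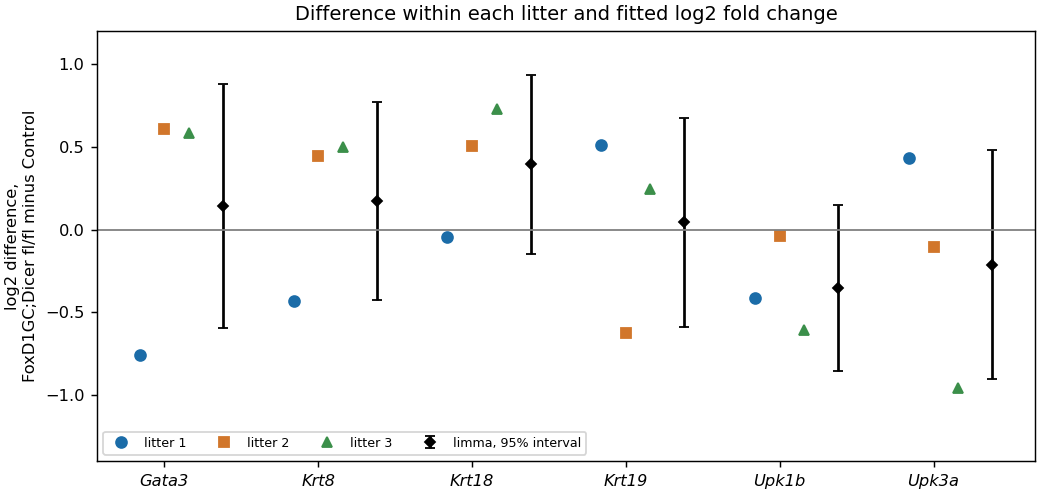
Log2 difference between the mutant and the control array within each litter (coloured points) and the limma log2 fold change with its 95% confidence interval (black diamonds) for the 6 tested members. Each interval includes 0, and only *Upk1b* has its 3 litters on the same side.

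Both uroplakin genes varied by more than 0.5 (SD) over the 6 arrays, and the genes with the most similar profiles were looked up among all tested genes. *Plau*, *Gas2* and *Zfp558* came nearest to *Upk1b*, with root mean square differences of 0.13, 0.13 and 0.14 over 6 arrays, and *Mfsd13a*, *Slc37a4* and *Pomt2* nearest to *Upk3a*, with 0.12, 0.12 and 0.13. None of these 6 is a gene of the lists used here. Their log2 fold changes ran from -0.41 for *Zfp558* to -0.03 for *Pomt2*, with an adjusted p of at least 0.86 in limma. Plau is the urokinase-type plasminogen activator, and *Slc37a4* encodes the glucose 6-phosphate transporter of the endoplasmic reticulum.

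The other genes listed for the ureteric bud and collecting duct were close to balance. This list is not of the duct alone: *Sox9* is also listed for ureter mesenchyme, and *Krt7* for urothelium and mesothelium. RNA of whole kidneys does not show what part of its counts and summed level came from the nephron or other cells. Of 48 listed genes, 38 were tested, of which 17 were above 0 and 21 below, with a median log2 fold change of -0.05 and a range from -0.60 to 0.71. No gene of this list had *B* above 0. At an unadjusted p under 0.05, 0 were higher and 2 lower, or 5.26% of the list, against 2.59% and 2.92% of all tested probes higher and lower. *Slc4a1*, the chloride-bicarbonate exchanger of acid-secreting intercalated cells and of red cells, was at 7.67, 7.50 and 6.67 in mutants and at 7.90, 8.11 and 7.62 in controls of litters 1, 2 and 3 (log2 fold change -0.60, SE 0.22, adjusted p = 0.86 from limma). It was lower in each litter, though the mutant array of litter 1 lay above the control array of litter 3. Of 7 listed erythroid genes 5 were tested, with a summed level of 14.04 to 14.08 in mutants and 13.96 to 14.27 in controls, and the part of red cells in the *Slc4a1* value was not tested. *Sox8*, a transcription factor gene of the branching tips, was dim at 4.60, 5.09 and 4.59 in mutants and 5.06, 5.64 and 5.20 in controls (-0.54, SE 0.19, adjusted p = 0.86).

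The duct genes were also sorted by role, after their values had been seen, and are described without a test. Of 8 branching signals and their targets, 2 were above 0 and 6 below (median -0.16). Their litter medians were -0.29, -0.11 and -0.38 in litters 1, 2 and 3, but only 1 gene, *Sox8*, was lower in every litter. Of all tested probes, 13.6% were lower in every litter. Of 3 genes of acid and base transport, *Slc4a1* among them, 1 was above 0 and 2 below (median -0.18), with litter medians of -0.23, -0.37 and -0.57. The medians of litters 2 and 3 are the differences of *Slc26a4*, which was dim. Its mutant values there, 4.57 and 4.67, lay below the lowest level of any detected probe on those arrays, so these medians hold no measured difference. Among the branching genes, *Ret*, the receptor of Gdnf, was at -0.30 (SE 0.23) and *Etv4*, a transcription factor gene induced by Ret signaling, at 0.71 (SE 0.35). Neither had 1 direction in all litters: the differences in litters 1, 2 and 3 were -0.26, 0.06 and -0.70 for *Ret*. For *Etv4* they were -0.37, 1.04 and 1.45, the litter order of *Gata3*. Of 10 duct transcription factors, 5 were above and 5 below 0, with litter medians of mixed sign (0.16, -0.20 and -0.12). *Gata2*, a relative of *Gata3*, was at 9.40, 9.29 and 8.80 in mutants and at 9.63, 9.48 and 9.41 in controls of litters 1, 2 and 3. Its groups did not overlap and its direction was the same in each litter, unlike that of *Gata3*, but its log2 fold change of -0.34 (SE 0.20, adjusted p = 0.86 from limma) did not pass.

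Of 7 genes of water and salt transport, 4 were above and 3 below 0 (median 0.08), with litter medians of -0.03, 0.08 and -0.08. The basolateral water channels of the collecting duct, *Aqp3* and *Aqp4*, had log2 fold changes of 0.08 and -0.08, and the sodium channel subunits *Scnn1b* and *Scnn1g* had 0.11 and -0.16. *Hsd11b2*, the enzyme that keeps cortisol-type steroids from the mineralocorticoid receptor, was at 6.07, 7.15 and 7.23 in mutants and at 6.87, 5.80 and 6.09 in controls of litters 1, 2 and 3. It thus had the litter order of *Gata3* (log2 fold change 0.57, SE 0.42), an order that 6 of 38 duct genes had. *Fxyd4*, a sodium pump regulator of the collecting duct, was higher in each litter and its groups did not overlap, at 8.71 to 9.30 in mutants and 8.47 to 8.63 in controls (0.43, SE 0.22, adjusted p = 0.86).

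Of 6 genes of adhesion and junctions, 4 were above and 2 below 0 (median 0.09), with litter medians of 0.22, -0.13 and 0.28. The tight junction genes *Cldn3* and *Cldn4* were higher in each litter without overlap, at 0.40 for *Cldn3* and 0.33 for *Cldn4* (SE 0.20 and adjusted p = 0.86 from limma for both), whereas *Cldn7* was at -0.01. *Cdh1*, the cadherin of epithelia, was at 0.02 and *Cdh16*, the kidney cadherin, at -0.08. Over the 38 duct genes the genotypes did not overlap in 4, *Gata2*, *Fxyd4*, *Cldn3* and *Cldn4*, which stands beside 12.9% of all tested probes.

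Of 30 genes listed for urothelium, 17 were tested, of which 7 were above 0 and 10 below, with a median log2 fold change of -0.03. The tested genes include 3 hedgehog and ureter signals, *Shh*, *Bmp4* (0.25) and *Ptch1* (0.54). The counts and summed level of the list are therefore not of urothelium alone. None had *B* above 0, and at an unadjusted p under 0.05 0 were higher and 1 lower, or 5.88% of the list, against 5.52% of all tested probes. That gene was *Perp*, a desmosomal p53 target of stratified epithelia, at 4.89, 5.26 and 4.78 in mutants and 5.94, 5.76 and 5.02 in controls of litters 1, 2 and 3 (-0.59, SE 0.23, adjusted p = 0.86 from limma). It was lower in each litter, by 0.24 in litter 3 and 1.04 in litter 1, but was dim. Both values of litter 3 and the mutant value of litter 1 lay below the lowest level of any detected probe on their arrays. The difference in litter 3 is therefore not a measured one, and the size of that in litter 1 is uncertain. The other uroplakin genes were dim and undecided: *Upk1a* had a log2 fold change of -0.09, *Upk2* one of -0.26 and *Upk3b*, which is also a mesothelial gene, one of 0.26.

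The small proline-rich proteins, precursors of the cornified envelope that urothelium also makes, had the widest spread of the urothelial list. *Sprr1a* was at 8.65, 6.44 and 6.26 in mutants and at 7.08, 7.17 and 7.21 in controls of litters 1, 2 and 3, so that the mutant of litter 1 stood high and those of litters 2 and 3 low. *Sprr2g* was at 8.41, 7.20 and 7.69 in mutants and at 6.37, 7.63 and 7.46 in controls. The fit gave -0.036 (SE 0.48) for *Sprr1a* and 0.62 (SE 0.44) for *Sprr2g*. *Shh*, the hedgehog ligand of urothelium, was at -0.30 (SE 0.21), and its target *Ptch1* at 0.54 (SE 0.31). Both were mixed over the litters: *Shh*, dim at 5.04 to 5.76, differed by -0.45, -0.46 and 0.01 in litters 1, 2 and 3. *Ptch1* differed by -0.36, 0.86 and 1.13, the litter order of *Gata3*.

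**Figure D4:**
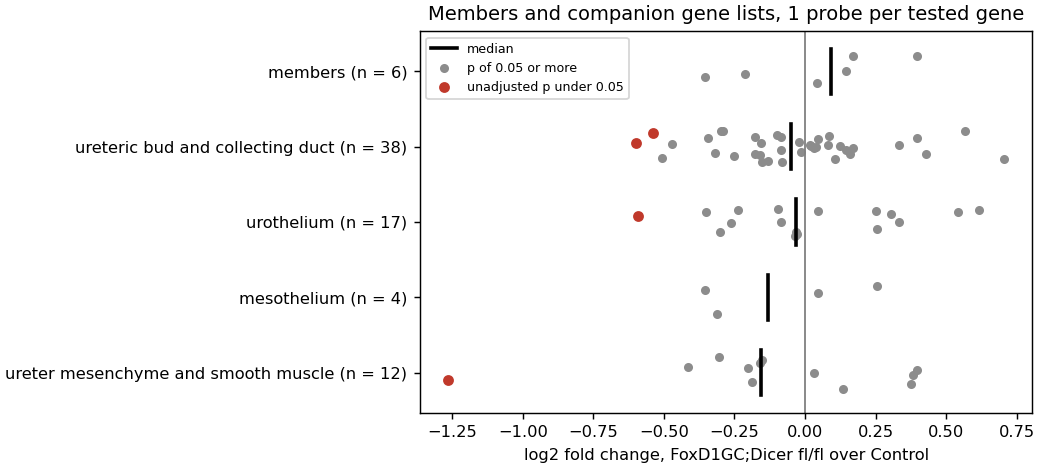
Log2 fold changes (mutant over control) of the tested members and of the tested genes of 4 lists, 1 point per gene through its brightest probe; red points have an unadjusted p under 0.05 and black bars are list medians. The medians of the members (0.09), the duct list (-0.05) and the urothelial list (-0.03) lie close to 0.

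Other cells that carry these RNAs or surround the ureter were read beside the members. Of 14 genes of ureter mesenchyme and smooth muscle, 12 were tested, of which 5 were above 0 and 7 below, with a median log2 fold change of -0.15. Their summed level was 11.90 to 12.47 in mutants and 12.68 to 12.80 in controls, and its brightest gene was *Acta2*, the smooth muscle actin (log2 fold change -1.27, SE 0.25, adjusted p = 0.76 from limma). *Acta2* was the 1 gene of the 12 whose genotypes did not overlap, beside 12.9% of all tested probes. Others such as *Tbx18* (0.38) and *Tbx2* (0.40), transcription factor genes of the ureter mesenchyme, had values above 0. Of 9 mesothelial genes, 4 were tested, *Upk1b* among them, with a summed level of 8.62 to 9.27 in mutants and 8.91 to 9.39 in controls, while the defining markers *Msln*, *Lrrn4* and *Bnc1* did not pass the detection filter. Summed over the tested genes, the duct list was at 14.17 to 14.38 in mutants and 14.22 to 14.29 in controls, and the urothelial list at 11.16 to 11.54 in mutants and 11.09 to 11.20 in controls. How much ureter and renal pelvis was left on each kidney is not stated in the sources, and its part in the uroplakin values was not tested.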

How the data were processed

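RNA of E15.5 kidneys was measured on Illumina MouseWG-6 v2.0 bead arrays. The authors deposited, per probe and array, an average bead intensity, neither background corrected nor normalized, and a detection p-value. The authors' deposited series matrix holds log2 values made by a transformation that the sources do not name, with low signals compressed. Per the study's methods, limma was run with litter as a term, and a positive *B*-statistic was the threshold.

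From the 45281 rows, 2 that lacked an identifier and 2 whose identifier recurred were dropped. Gene names came from the platform annotation, brought up to date by gene identifier (34881 with 1 gene, 18 with several, 10378 unnamed here). The neqc routine (normexp background with the detection p-values, offset 16, then quantiles and log2) normalized the arrays ( limma 3.58.1 in R 4.3.3). The test took the 18639 probes that 3 or more arrays detected (p-value under 0.05). The fit was lmFit and eBayes with litter and genotype and a prior share of 0.01, with Benjamini-Hochberg adjustment over all tested probes, and the number of arrays limits the precision (median standard error 0.22). A gene was read through its brightest tested probe. A list's summed level is the log2 of the sum of its linear normalized values.

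The labels give a shared litter number to mutant and control arrays. Over all tested probes, the correlation of same-litter deviations from the genotype means was -0.29, -0.019 and -0.12 for litters 1, 2 and 3. The members and lists were chosen with earlier results of these data known. The text names all members, genes of the duct and urothelial lists with an unadjusted p under 0.05 and 1 direction in all litters, bright markers of other cell types beside a result, and the 3 genes nearest in profile to members with an SD above 0.5. Genes named by role beyond this were chosen after their values were seen. The fit was tested on simulated data. Other settings were the handling of litter, background, normalization, filter, offset, weights, an intensity trend, *Xist* as a covariate and each litter left out. Python 3.11.15 and matplotlib 3.10.9 drew the figures, and sequences are from RefSeq.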

Additional observations from a re-analysis of the deposited data

How the results depend on the processing

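The count of member genes with *B* above 0 was 0 under all 14 other settings, and so was that of the 52 tested companion genes. The fits without the replicate block and with litter as a random block also called 0 members, although over the whole table they called 34 and 10 probes against 0 with litter as a block. At an unadjusted p under 0.05 the companion genes numbered 3, against 0 with litter as a random block, 5 with scaling to one median, 7 of 71 without a filter, 1 with the strict filter, the intensity trend or an offset of 50, 18 with array weights (where 5851 of 18639 probes had such a p), 5 with *Xist* as a covariate and 1 to 10 when a litter was left out. With array weights *Gata3*, *Krt8* and *Krt18* had one too, with an adjusted p from 0.080 to 0.15. Scaling to one median moved the median of all genes to -0.27 and turned *Gata3* to -0.15, *Krt8* to -0.14 and *Krt19* to -0.070, all above that median. *Gata3* turned to -0.070 with *Xist* as a covariate, *Krt19* to -0.39 with array weights, and the dimmer *Upk1b* probe gave 0.074. Leaving out a litter gave -0.088 to 0.59 for *Gata3*, -0.19 to 0.38 for *Krt19* and -0.53 to 0.16 for *Upk3a*, while *Krt8* (0.0068 to 0.47), *Krt18* (0.23 to 0.62) and *Upk1b* (-0.51 to -0.23) kept their sign. Without litter 1, *Xist* was bright on the mutant arrays only. The median of the members, 0.09, was -0.14 with scaling, -0.01 with *Xist* and -0.03 to 0.14 with a litter left out. Signal close to background limits *Aqp2*, *Calb1*, *Emx2* and the dimmer probes.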
